A study of Mus musculus with 30 samples.

Results

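Klhl33, Ces1d, Tspan8, Phospho1, Sdr39u1, Lrrc20 and Adhfe1 are 7 genes of mouse skeletal muscle whose transcripts were far lower in injured than in uninjured tibialis anterior, the muscle along the front of the shin. They were picked by symbol from 26264 gene symbols, because each stood among the steepest decreases from uninjured muscle at 1 or more days after injury. The contrasts with uninjured muscle therefore chose them, and their values against uninjured muscle are given as a description with no test. All 7 held enough counts to be kept, as did 17136 symbols in all.

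The samples were tibialis anterior muscles of male and female mice, either uninjured or taken 4, 7, 11 or 15 days after a volumetric muscle loss injury, in which a volume of muscle is surgically removed. There were 10 groups of sex and time with 3 libraries each. The labels name no strain, genotype, age or agent, and they do not say whether libraries came from separate animals or whether the uninjured muscles came from injured mice, so the p-values below measure the spread between these samples. RNA-seq read counts per gene were analysed.

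Muscle fibres fill most of a healthy muscle and make large amounts of contractile and metabolic transcripts. After a loss of tissue, immune cells, fibroblasts and regenerating cells enter the wound, and new fibres pass through an immature state before the adult programme is switched on. The 7 genes share no pathway. 4 encode enzymes: Phospho1 is a phosphatase that releases phosphate from phosphocholine and phosphoethanolamine and is best known from bone mineralisation, Ces1d is a carboxylesterase that hydrolyses triacylglycerol and is well studied in fat and liver, Adhfe1 is a mitochondrial transhydrogenase that oxidises 4-hydroxybutyrate while making 2-hydroxyglutarate, and Sdr39u1 belongs to the short-chain dehydrogenases. Tspan8 is a tetraspanin, a protein with several membrane-spanning segments that organises membrane domains. Klhl33 belongs to the kelch-like proteins, many of which bring substrates to a cullin ubiquitin ligase, and Lrrc20 carries leucine-rich repeats.

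Levels are given as CPM, the count as a share of the library after scaling by library size and TMM factors, which correct for libraries dominated by a few genes. Total counts lay between 13089999 and 57277336 per library, and the mean TMM factor was 0.527 in uninjured muscle and 1.08 to 1.30 after injury. With library size alone in place of TMM, the median log2 fold change of all genes against uninjured muscle moved up by 1.03 to 1.30, so each fold change below is relative to that scaling. In female day 11 replicate 3, so labelled, Xist, the RNA of the inactive X chromosome, stood at 0.109 CPM and Ddx3y, a gene of the Y chromosome, at 57.4 CPM, whereas the other 14 libraries labelled female held no Ddx3y, so it goes against its sex label. It was kept under that label, and some day 11 results that it moved are also given without it. Ranges, means and values relative to fibre markers include it. The 24 muscle fibre markers, among them creatine kinase and fast myosins, summed to 470264 to 664104 CPM in uninjured libraries, so the muscle label holds for them, and to 15633 to 218026 CPM after injury. Female day 4 replicate 2 was the library at 15633 CPM. Other markers moved with injury as well: 14 macrophage markers summed to 53.9 to 79.0 CPM without injury and to 304 to 4707 CPM with it, and 12 fibroblast markers to 572 to 1104 and 5371 to 29956 CPM. The 304 and 5371 CPM were both from the library labelled female day 11 replicate 3. In bulk tissue, fewer cells of a type and less RNA per cell cannot be told apart, and these libraries do not show which cells held the transcripts of the 7 genes. The name mature muscle gene therefore rests on their level in uninjured muscle alone.

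Promoter sequences were matched for 5 of the 7 genes, with 7 entries, from RefSeq on build GRCm38.p6, each running from 250 bases before to 50 bases after a transcription start. Stretches outside annotated exons are shown for Klhl33, the member with the highest level at day 15 relative to uninjured muscle, and for Phospho1 and Sdr39u1, whose courses were close to each other. Each is written 5′ to 3′ on the gene's strand, at chr14:50897508-50897733 (minus strand), chr11:95824412-95824498 (plus strand) and chr14:55900343-55900482 (minus strand), and capitals mark a match to the MEF2 motif, which is bound by a muscle transcription factor family.
Klhl33: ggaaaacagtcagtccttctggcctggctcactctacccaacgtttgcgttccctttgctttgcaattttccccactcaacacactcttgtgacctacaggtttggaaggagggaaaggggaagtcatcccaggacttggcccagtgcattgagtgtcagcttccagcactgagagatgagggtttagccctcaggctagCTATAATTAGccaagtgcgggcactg
Phospho1: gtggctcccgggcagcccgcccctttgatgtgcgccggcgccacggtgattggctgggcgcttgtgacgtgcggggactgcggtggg
Sdr39u1: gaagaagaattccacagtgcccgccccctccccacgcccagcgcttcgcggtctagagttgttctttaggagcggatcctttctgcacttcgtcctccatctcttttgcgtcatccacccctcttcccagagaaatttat
Motifs were searched on both strands of the 250 bases before each start, and not in the 50 bases after it. They were the E-box CAGCTG, the nuclear receptor element AAGGTCA, the TATA element (TATAAA), the element CACCC bound by some zinc finger factors, the MEF2 motif and the CArG box. MEF2 and TATAAA matches can overlap. The MEF2 motif was found in 1 entry of Klhl33 and in no other entry of the 5 genes, and it is held by 2.92% of all 32851 promoters of the same length. CACCC was found in Lrrc20, Phospho1, Sdr39u1 and the other entry of Klhl33, and in 52.0% of all promoters. CAGCTG (13.0% of all promoters), AAGGTCA (4.08%), TATAAA (12.4%) and the CArG box (1.47%) were in none of the members' searched bases, which says only that these letters are not there.

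In uninjured muscle the 7 genes were expressed at different levels per length. Klhl33 had the highest mean at 108 ± 10.7 CPM per kilobase of exon (SD, n = 6), followed by Tspan8 at 86.4 ± 24.2 and Lrrc20 at 82.7 ± 21.4, which differed by less than their spread. Sdr39u1 at 25.9 ± 7.61, Ces1d at 23.2 ± 7.64, Phospho1 at 19.9 ± 7.39 and Adhfe1 at 15.5 ± 3.07 formed a lower set, in which neighbours again differed by less than their spread. At day 4 Lrrc20 had the highest mean per length (10.5 ± 2.97), ahead of Tspan8 (4.97 ± 2.61) and Klhl33 (4.89 ± 2.49). From day 7 Klhl33 had the highest, and at day 15 it stood at 49.4 ± 8.24 CPM per kilobase against 0.651 ± 0.0651 for Phospho1, the lowest. Of the exon bases of Phospho1 and Sdr39u1, 89.6% and 48.4% also lie in exons of other genes. If shared reads were not counted, their levels per length are too low, so their places in these orders are uncertain.

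**Figure D1:**
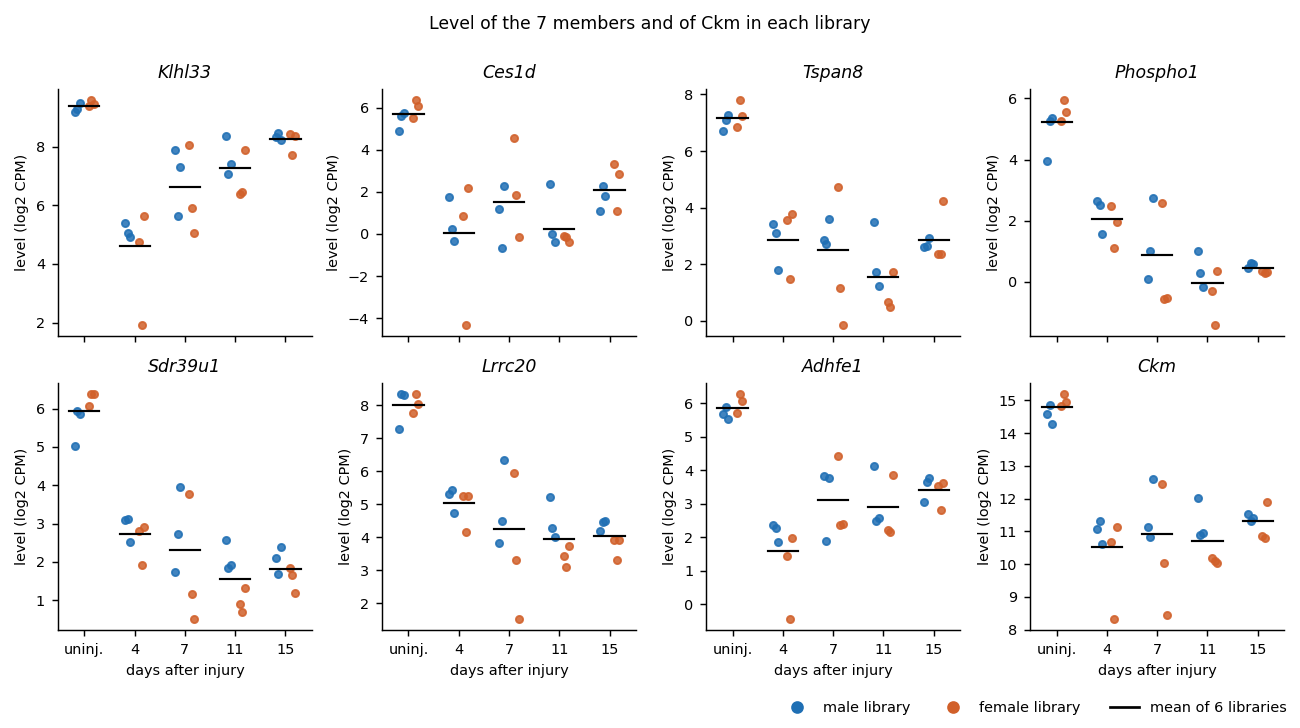
Level of each member and of creatine kinase (Ckm) in log2 CPM (y axis) by time after injury (x axis); points are single libraries, blue male and orange female, and bars are means of 6 libraries. No injured library of any member reached the uninjured libraries, and Klhl33 stood closest to them at day 15 (211 to 356 against 579 to 763 CPM).

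Phospho1 had the lowest mean of the 7 at day 15. Its CPM was 15.6, 37.9 and 41.4 in uninjured males and 38.5, 61.4 and 47.4 in uninjured females, against 2.09 to 6.17 at day 4 (median 4.70). It then stood at 0.629 to 6.70 at day 7 (median 1.48), 0.325 to 1.96 at day 11 (median 1.00) and 1.18 to 1.49 at day 15 (median 1.28). Male uninjured replicate 1 was well below the other uninjured libraries, and still above every injured one. The day 15 libraries were the closest together of any time, at 1.33, 1.49 and 1.46 CPM in males and 1.23, 1.18 and 1.2 in females. The mean was 10.8, 6.96, 2.59 and 3.26% of the uninjured mean at days 4, 7, 11 and 15, with log2 fold changes of -3.18 ± 0.48, -3.82 ± 0.50, -5.30 ± 0.55 and -4.91 ± 0.54 (SE). Without female day 7 replicate 1 the day 7 value was -4.77. Phospho1 was thus not at its lowest at day 4, and day 15 differed from day 4 by -1.73 ± 0.49 on the log2 scale, a value that carries no test because day 15 helped to choose the gene.

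The Phospho1 count is uncertain, since 89.6% of its exon bases in GENCODE M21 also lie in exons of Zfp652 on the same strand and 84.2% in exons of Abi3 on the opposite strand. How the counting treated strand and shared reads is not given in the sources used here. Abi3 had 14.4 ± 1.88 CPM in uninjured muscle and means of 20.2 to 24.2 CPM after injury. Zfp652 had 9.22 ± 1.82 CPM and then means of 3.98 to 6.50.

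Sdr39u1 had a similar course with higher levels. It was at 32.1, 61.2 and 58.1 CPM in uninjured males and 66.9, 82.7 and 82.8 in uninjured females. The day 4 libraries lay at 3.71 to 8.64 CPM (median 7.18), day 7 at 1.37 to 15.3 (median 4.90), day 11 at 1.56 to 5.87 (median 2.99) and day 15 at 2.21 to 5.19 (median 3.34). Groups did not overlap with uninjured muscle, but all 4 injured days overlapped with each other. The log2 fold changes were -3.21 ± 0.41, -3.18 ± 0.41, -4.42 ± 0.44 and -4.15 ± 0.44 at days 4, 7, 11 and 15, or 10.7, 11.0, 4.94 and 5.59% of the uninjured mean, and the day 7 value was -4.02 without female day 7 replicate 1. Of its exon bases 48.4% lie in exons of Khnyn on the opposite strand, so this count is uncertain too. Khnyn was at 19.1 ± 3.75 CPM in uninjured muscle and at means of 23.0 to 27.4 after injury.

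Adhfe1 had its lowest mean at day 4. Uninjured libraries held 45.7 to 77.3 CPM (median 55.6), and day 4 libraries 5.11, 4.78 and 3.58 in males and 2.68, 0.687 and 3.88 in females. The later libraries lay at 3.67 to 21.5 CPM at day 7 (median 9.40), 4.40 to 17.3 at day 11 (median 5.76) and 6.99 to 13.7 at day 15 (median 11.9). The day 15 libraries were all above the day 4 libraries. The mean was 5.89, 18.0, 14.9 and 18.6% of the uninjured mean, with log2 fold changes of -4.15 ± 0.47, -2.47 ± 0.43, -2.75 ± 0.44 and -2.42 ± 0.43, and -3.19 at day 11 without the library labelled female day 11 replicate 3. That library, at 14.5 CPM, and male replicate 1, at 17.3 CPM, stood above the other 4 of day 11, which held 4.40 to 5.98 CPM.

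Ces1d was the most variable member after injury. It was at 30.1, 48.4 and 54.6 CPM in uninjured males and 46.0, 81.7 and 68.4 in uninjured females. At day 4 it was at 3.30, 1.13 and 0.751 CPM in males and 1.73, 0 and 4.41 in females, where the library without counts allows a level of up to 3 read pairs, or 6 counts. The limit covers counting error only. At day 7 it lay at 0.580 to 23.3 CPM (median 2.86), and 23.3 was female replicate 1 alone, the next being 4.76. Day 11 was lower, with 5 libraries between 0.709 and 0.953 CPM and male replicate 1 at 5.20, and day 15 held 2.04 to 9.92 CPM (median 4.11). The log2 fold changes were -4.84 ± 0.82, -3.49 ± 0.77, -5.30 ± 0.85 and -3.53 ± 0.77. Single libraries moved these by more than 1.5 times: the value was -5.46 at day 4 without female replicate 3, -4.54 at day 7 without female replicate 1 and -6.02 at day 11 without male replicate 1. Of the 50-base stretches in its longest transcript, 1.28% also occur in other genes, led by Ces1b, Ces1g and Ces1f, and no 100-base stretch does.

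Because Ces1d is known from fat, the 18 adipocyte markers are given beside it. They summed to 2284 to 3260.1 CPM without injury. The sums after injury were 257 to 560.3 (day 4), 431 to 1174 (day 7), 546 to 1229 (day 11) and 1187 to 2007 (day 15), all below the uninjured libraries. A sum follows its highest genes, and the mean log2 CPM of the list was 1.58 to 2.89 without injury and 2.32 to 3.92 at day 15. By edgeR's quasi-likelihood test with Benjamini-Hochberg adjustment, 2 of 18 rose and 8 fell at day 4, against 40.1% and 33.0% of all genes tested, and 12 rose and 3 fell at day 15, against 39.7% and 29.3%. The median of the list was -1.14 at day 4, positive (0.14) with library size alone, and 1.77 at day 15. Adipoq, the adipocyte hormone adiponectin, was at only 0.511 ± 0.559 CPM in uninjured muscle, where Ces1d had 54.9 ± 18.1, and Adipoq rose to 5.94 ± 4.98 CPM at day 15 (log2 fold change 3.80 ± 0.94, adjusted p = 0.000919), where Ces1d had 4.91 ± 3.12. The defining marker Cidec had no counts in at least 1 uninjured library, at a mean of 0.257 ± 0.287 CPM. The part of adipocytes in the level of Ces1d was not tested.

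Tspan8 was low from day 4 on. Its CPM was 104, 137 and 155 in uninjured males and 115, 221 and 149 in uninjured females. It was 2.75 to 13.5 at day 4 (median 9.67), 0.858 to 26.5 at day 7 (median 6.90), 1.34 to 11.3 at day 11 (median 2.77) and 5.05 to 18.6 at day 15 (median 6.11). The highest value of day 7 was again female replicate 1 and that of day 11 male replicate 1, and at day 15 female replicate 3 stood above the other 5, which held 5.05 to 7.54 CPM. The log2 fold changes were -4.12 ± 0.62, -3.99 ± 0.62, -5.44 ± 0.67 and -4.20 ± 0.63, and the day 7 value was -5.34 without female day 7 replicate 1. Day 15 differed from day 4 by -0.08 ± 0.56, an interval of 1 SE that spans both directions.

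Klhl33 had the most divergent course. Uninjured libraries held 579, 625 and 721 CPM in males and 670, 763 and 708 in females, the tightest uninjured spread of the 7 in proportion to the mean. At day 4 it was at 42.0, 32.8 and 30.1 CPM in males and 26.5, 3.73 and 49.5 in females, the 3.73 being female replicate 2. Day 7 held 235, 49.8 and 157 CPM in males and 265, 59.2 and 33.5 in females, and day 11 held 331, 132 and 171 in males and 82.6, 87.3 and 238 in those labelled female. Day 15 was closer together, with 321, 356 and 303 CPM in males and 343, 211 and 329 in females, and none of the injured libraries reached the 579 CPM of the lowest uninjured one. The mean was 4.54, 19.7, 25.6 and 45.8% of the uninjured mean, and the log2 fold changes were -4.47 ± 0.54, -2.35 ± 0.49, -2.00 ± 0.48 and -1.13 ± 0.47. Single libraries moved the middle days, to -3.03 at day 7 without female day 7 replicate 1 and to -2.38 at day 11 without the library labelled female day 11 replicate 3. Every day 15 library was above every day 4 library, with a difference of 3.35 ± 0.51 that carries no test, since day 4 chose the gene. With library size alone the day 15 value was -0.09, so whether Klhl33 was below uninjured muscle at day 15 depended on the scaling.

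Lrrc20 had a course close to that of Sdr39u1. It was at 154, 321 and 316 CPM in uninjured males and 217, 323 and 263 in uninjured females, and at 18.0 to 42.9 CPM at day 4 (median 38.0). Day 7 spread widely, from 2.82 in female replicate 3 to 81.1 in male replicate 3, and day 11 and day 15 lay at 8.39 to 36.9 and 9.94 to 22.5 CPM. No group reached the 154 CPM of the lowest uninjured library. The log2 fold changes were -2.98 ± 0.49, -3.09 ± 0.50, -4.05 ± 0.52 and -4.0 ± 0.52, and -4.08 at day 7 without female day 7 replicate 1. The means were 12.7, 12, 6.54 and 6.43% of the uninjured mean.

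**Figure D2:**
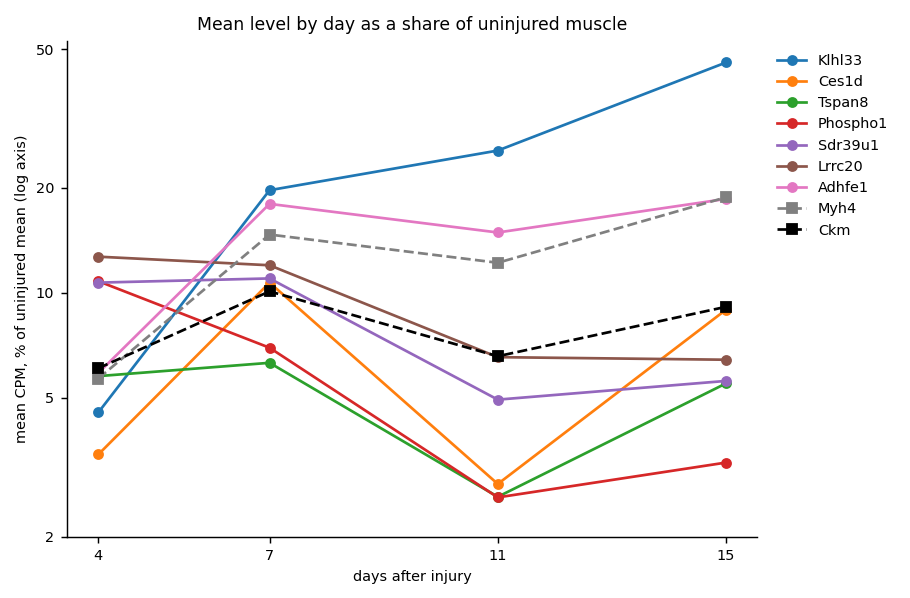
Mean CPM of each member, and of the fibre genes Myh4 and Ckm (dashed), as a percentage of the uninjured mean (log y axis) at days 4, 7, 11 and 15 (x axis); each point is the mean of 6 libraries. Klhl33 stood at 4.54% at day 4 and 45.8% at day 15, Adhfe1 ran beside Myh4, and Phospho1, Sdr39u1 and Lrrc20 were lower at day 15 than at day 4.

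The ranks that led to the choice varied by day. Genes called lower with a mean of at least 5 CPM and no overlap with uninjured muscle numbered 3875, 3076, 3263 and 3344 at days 4, 7, 11 and 15, of 17136 tested. Among them Klhl33 ranked 7 for the steepest decrease at day 4 and 1941 at day 15, and Adhfe1 17 at day 4 and 140 to 174 later. Ces1d ranked 2, 6, 2 and 15 at days 4, 7, 11 and 15, Tspan8 20, 3, 1 and 3, and Phospho1 137, 4, 3 and 1. Sdr39u1 ranked 5 and 4, and Lrrc20 10 and 5, at days 11 and 15. At rank 10 Lrrc20 had -4.05 at day 11, and the next genes outside were Smox at -4.05 and Cd24a at -4.04; at day 4 Klhl33 had -4.47 and the following Pvalb and Gdap1 both -4.45. All 7 members were among these genes without overlap at each of the 4 days. At the days that chose a member this followed from the choice, and the other days share the uninjured libraries with them. The share of all tested genes called lower was 33.0, 29.9, 29.7 and 29.3% at days 4, 7, 11 and 15.

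Some libraries stood at the end of their group for all members together. Female day 4 replicate 2 was the lowest of its day for 7 of 7 members, and its fibre markers had the lowest mean too, at 8.40 log2 CPM against 10.55 to 11.09 in the other 5. Male day 11 replicate 1 was the highest of its day for 7 of 7 and for the fibre markers (12.50 against 11.20 to 11.98). At day 7 female replicate 1 was the highest for 4 members and female replicate 3 the lowest for 4, and these libraries also held the highest and lowest fibre marker means, 12.48 and 10.05. In uninjured muscle male replicate 1 was the lowest for 6 members and female replicate 2 the highest for 6, but their fibre marker means, 13.79 and 13.97, lay within the 13.48 to 13.99 of the group. The part of fibre content in the members' spread was not tested.

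The level of each member was therefore also set against the mean of the 24 fibre markers in the same library, with the uninjured mean as 0 on the log2 scale. That fibre mean itself was -3.39, -2.31, -2.16 and -1.85 at days 4, 7, 11 and 15. Klhl33 was below the fibre markers in 6 of 6 libraries at day 4 (-1.40 ± 0.40, SD, n = 6) and above them in 6 of 6 at day 15 (0.71 ± 0.39). Phospho1, Sdr39u1 and Lrrc20 were at 0.21 ± 0.75, 0.18 ± 0.66 and 0.41 ± 0.67 at day 4, within their spread of the fibre markers. From day 7 they were below in all 6 libraries of each day, and at day 15 they reached -2.94 ± 0.29, -2.28 ± 0.52 and -2.12 ± 0.35. Days 11 and 15 helped to choose these genes, day 7 also Phospho1, and day 4 Klhl33. At any day that chose a member, a level below the fibre markers follows in part from the choice. Tspan8 was below at every day, from -0.90 ± 0.81 at day 4 to -3.45 ± 0.72 at day 11. Ces1d was below in all 6 libraries at days 4 and 11 and in 5 of 6 at days 7 and 15. Adhfe1 was below in all 6 libraries at day 4 (-0.88 ± 0.29), the day counted as choosing it. At days 7, 11 and 15 Adhfe1 was at -0.42 ± 0.50, -0.79 ± 0.70 and -0.60 ± 0.45. Klhl33 was at -0.45 ± 0.42 and 0.01 ± 0.53 at days 7 and 11. At day 11 the library labelled female replicate 3 held the highest value of both, 0.45 for Adhfe1 and 0.93 for Klhl33.

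**Figure D3:**
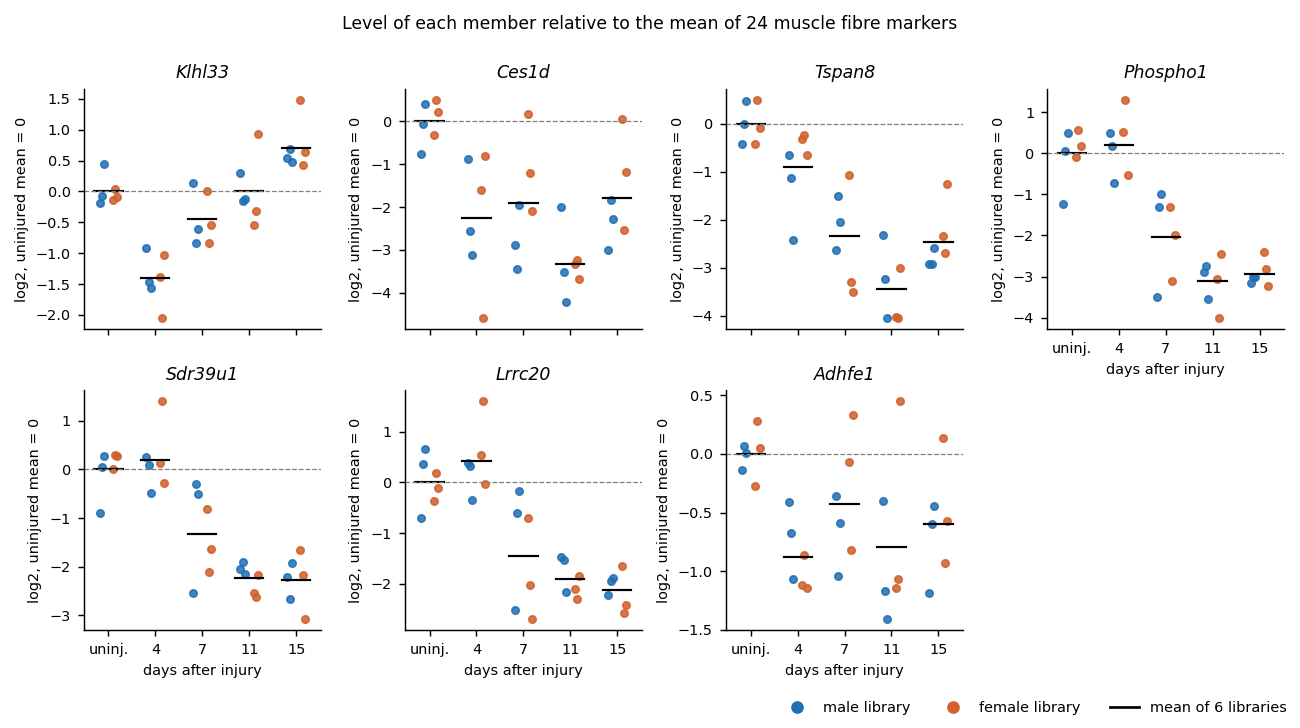
Log2 level of each member relative to the mean of 24 muscle fibre markers in the same library (y axis, uninjured mean set to 0, dashed) by time after injury (x axis); points are libraries, blue male and orange female, and bars are means of 6. Klhl33 went from -1.40 at day 4 to 0.71 at day 15, while Phospho1, Sdr39u1 and Lrrc20 were near 0 at day 4 and at -2.94, -2.28 and -2.12 at day 15. Day 4 helped to choose Klhl33 and day 15 Phospho1, Sdr39u1 and Lrrc20, so low values there follow in part from the choice.

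A day counted as choosing a gene that was among the 10 steepest decreases there, and day 4 so counted for Adhfe1, at its highest rank of 17. The cutoff was set for these tests and may not match the choice itself. Sdr39u1 and Lrrc20, at ranks 15 and 20 at day 7, fell outside it, so day 7 may have helped to choose them. Differences between injured days were tested only where the days compared had not chosen the gene by this cutoff, which left 8 tests. None was called by edgeR's quasi-likelihood test with Benjamini-Hochberg adjustment over all genes, and 1 had an unadjusted p below 0.05; the shares of all genes called were 35.2% for day 7 against 4, 0.0584% for 11 against 7, 16.2% for 15 against 7 and 4.24% for 15 against 11. That 1 was Klhl33, higher at day 15 than at day 7 by 1.23 ± 0.47 (unadjusted p = 0.0151, adjusted p = 0.0758), with overlapping libraries (211 to 356 against 33.5 to 265 CPM). It passed with DESeq2 (1.25, adjusted p = 0.0285) and in 3 of the 30 edgeR fits that left out 1 library. These were without female day 7 replicate 1 (1.91, adjusted p = 0.00364), male day 7 replicate 1 (1.48, adjusted p = 0.0433) or female day 4 replicate 2 (1.25, adjusted p = 0.0293). Library size alone and a replicate block, given below, passed it too. It was not called with RLE scaling, the 2 other low-count filters, halved counts or a fit of the compared groups only. Klhl33 at day 11 differed from day 7 by 0.36 ± 0.47 (0.04 without the library labelled female day 11 replicate 3) and from day 15 by 0.87 ± 0.47, the later day being higher (1.2 without that library). Adhfe1 differed by -0.28 ± 0.41, 0.05 ± 0.42 and 0.32 ± 0.42 for 11 against 7, 15 against 7 and 15 against 11. Sdr39u1 and Lrrc20 at day 7 differed from day 4 by 0.03 ± 0.39 and -0.12 ± 0.46. Without female day 7 replicate 1 these 2 became -0.82 (adjusted p = 0.0327) and -1.11 (adjusted p = 0.0230) by edgeR, so both calls turned on that library.

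The other differences between days are values without a test. Phospho1 at day 11 differed from day 4 by -2.11 ± 0.49, Sdr39u1 and Lrrc20 at day 15 from day 4 by -0.95 ± 0.40 and -1.02 ± 0.47, and Adhfe1 at day 15 from day 4 by 1.72 ± 0.43. Ces1d and Tspan8 were lower at day 11 than at day 7, by -1.81 ± 0.76 and -1.45 ± 0.58, and higher again at day 15 than at day 11, by 1.77 ± 0.77 and 1.24 ± 0.58. The lower level of Tspan8 at day 11 rests on female day 7 replicate 1: without it the fold changes against uninjured muscle at days 7 and 11 were -5.34 and -5.44. For Ces1d they were -4.54 and -5.30 without that library, so the difference shrank but day 11 stayed lower.

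The rule pooled the sexes, so females and males could be compared. In uninjured muscle all 7 members had positive differences, female minus male, from 0.02 ± 0.65 for Lrrc20 to 0.63 ± 0.63 for Phospho1, and none was called, against 0.642% of all genes. With library size alone Klhl33 was at -0.07 and Lrrc20 at -0.21, while the others stayed positive. Without male uninjured replicate 1 Lrrc20 was at -0.25 and Phospho1 at 0.31. For Phospho1 the mean was 31.6 ± 14.0 CPM in males and 49.1 ± 11.6 in females (SD, n = 3), and for Sdr39u1 50.4 ± 16.0 and 77.4 ± 9.15. The sex difference in the change from uninjured muscle was below 0 in 24 of 28 member and day values, meaning a larger decrease in females, but these values share the uninjured libraries and the libraries that stood apart for all members. The direction was not particular to the members: at days 4, 7, 11 and 15 Ckm was at -0.99, -0.96, -1.68 and -0.55, and Myh4 at -0.06, -0.42, -0.87 and -0.72. The share of all genes below 0 was not counted. None of the 35 sex tests was called by edgeR after Benjamini-Hochberg adjustment, 1 had an unadjusted p below 0.05, and the shares of all genes called at days 4, 7, 11 and 15 were 0.0467, 0.123, 0.0584 and 0.210%.

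Most sex differences had wide errors. For Phospho1 they were -1.0 ± 0.90, -1.10 ± 0.91, -1.42 ± 0.96 and -0.87 ± 0.97 at days 4, 7, 11 and 15, all below 0, and that of day 7 ran from -2.99 without female day 7 replicate 1 to -0.01 without male day 7 replicate 3. Ces1d and Tspan8 were below 0 at day 11, at -2.04 ± 1.48 and -1.76 ± 1.14, and above 0 at day 15, at 0.33 ± 1.42 and 0.25 ± 1.11. The day 11 values rest in part on male day 11 replicate 1, without which they were -0.61 and -0.76. The day 15 values turned to -0.13 for Ces1d without female day 15 replicate 1 and to -0.67 for Tspan8 without female day 15 replicate 3.

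The lowest p was that of Sdr39u1 at day 11, at -1.78 ± 0.79 (unadjusted p = 0.0323, adjusted p = 0.467 by edgeR). Its libraries at that day held 5.87, 3.52 and 3.73 CPM in males and 1.83, 1.56 and 2.45 in those labelled female, with no overlap, and leaving out female replicate 3 of that day, which goes against its label, gave -1.99. That library moved the day 11 sex differences of Klhl33 from -0.79 ± 0.93 to -1.46 and of Adhfe1 from -0.62 ± 0.82 to -1.41. Female day 7 replicate 1 moved the day 7 differences further: Sdr39u1 went from -1.19 ± 0.77 to -2.88 without it, which edgeR called (adjusted p = 0.0222), and to -0.43 without male day 7 replicate 3, and Ces1d from 1.31 ± 1.41 to -0.78. Tested jointly over the 4 days, no member was called, with adjusted p of 0.937 to 0.998 by edgeR and none below 0.05 unadjusted, against 0.0350% of all genes. The SE of these differences ran from 0.76 to 1.48, so they were not detectable at this spread.

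**Figure D4:**
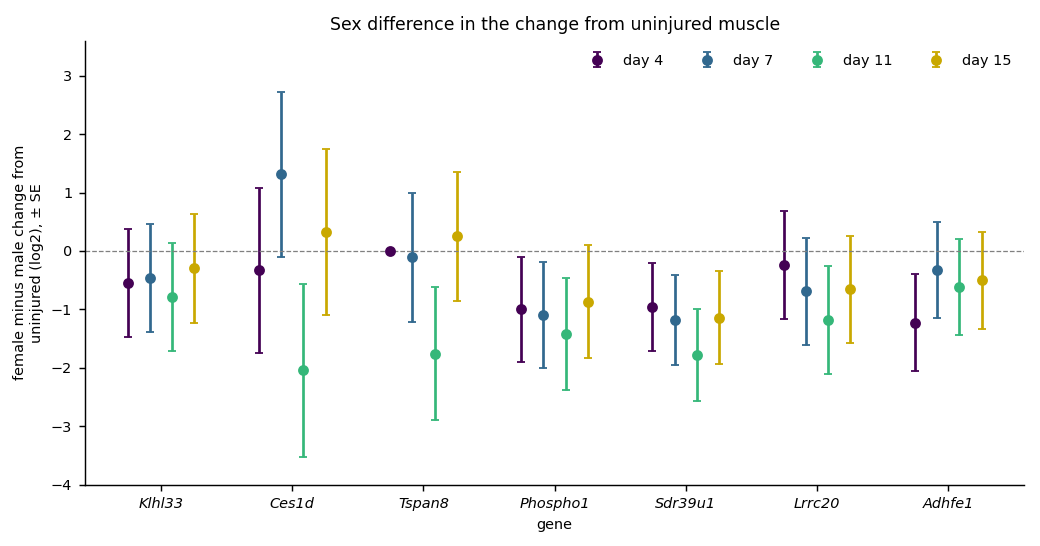
Sex difference in the log2 change from uninjured muscle (y axis, female minus male, with bars of 1 SE) for the 7 members (x axis) at days 4, 7, 11 and 15 (colours); Tspan8 at day 4, at 0, has no SE. Of 28 values 24 lie below 0 (the share of all genes was not counted), none was called, and Sdr39u1 at day 11 stands at -1.78.

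The courses of the members were also compared with each other. The likeness of 2 genes was measured as the root mean square difference of their log2 CPM over the 10 group means, each centred on its own mean. Sdr39u1 and Lrrc20 were the closest pair at 0.23, Phospho1 stood 0.39 and 0.49 from them, and Tspan8 0.55 to 0.62 from these 3. Klhl33 and Adhfe1 were 0.67 apart, and Klhl33 and Phospho1 were the farthest pair at 1.96. Ces1d was nearest to Adhfe1 at 0.89. Day 4 helped to choose Klhl33 and Adhfe1, and only later days Phospho1, Sdr39u1, Lrrc20 and Tspan8. The distance between these groups of genes therefore follows in part from the choice and is given as a description.

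Among 10844 genes with a mean of at least 5 CPM, the nearest to Klhl33 were Pvalb, the calcium buffer of fast fibres (0.27), Tnni2, fast troponin I (0.37), and Cox7a1, a cytochrome oxidase subunit (0.38). Cox7a1 differed from uninjured muscle by -3.50 ± 0.43 at day 4 and -0.31 ± 0.39 at day 15, and Pvalb by -4.45 ± 0.64 and -1.66 ± 0.57. The nearest to Adhfe1 were Myhas (0.23), Ampd1, the muscle AMP deaminase (0.24), and Plet1os (0.25), and Ampd1 was at -3.86 ± 0.38 at day 4 and -2.33 ± 0.36 at day 15. For Sdr39u1 and Lrrc20 the nearest gene besides each other was Rasd2 (0.33) and Me1, the malic enzyme (0.28), in that order, with Me1 at 0.35 from Sdr39u1 and Mpc1, a subunit of the mitochondrial pyruvate carrier, at 0.32 from Lrrc20. Me1 was also among the 3 nearest to Tspan8 (0.57), and Cd24a was at 0.50 from Phospho1. Ces1d had no close neighbour; the nearest were Ppp1r1a, a protein phosphatase inhibitor (0.59), the ligand Wnt4 (0.66) and Ppp1r3c, a glycogen-targeting phosphatase subunit (0.77).

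The families and pathways of the members were counted from lists that hold no member, with edgeR's quasi-likelihood test and Benjamini-Hochberg adjustment over all genes. Fibre markers fell in 23, 23, 22 and 21 of 24 at days 4, 7, 11 and 15, with medians of -3.44, -2.12, -2.41 and -1.78. With library size alone 22, 16, 14 and 13 fell and 0, 0, 1 and 1 rose, with medians of -2.16, -1.06, -1.28 and -0.76. The share of all genes called lower ran from 29.3 to 33.0% over the days, that called higher was 40.1, 41.6, 42.7 and 39.7%, and the median of all genes was 0.17 to 0.32.

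Of 20 kelch proteins and their ligase partners, which bear on Klhl33, 14, 15, 16 and 15 fell and 3, 2, 2 and 2 rose. The medians were -0.97, -1.10, -1.38 and -1.16, of which that of day 4 turned to 0.33 with library size alone, where 5, 5, 8 and 7 fell and 8, 6, 7 and 6 rose. At day 11 Klhl21 was at -3.27 ± 0.41, Kbtbd12 at -2.99 ± 0.33 and Cul3, the cullin of the ligase, at -2.59 ± 0.26. Klhl40 and Klhl41, both muscle kelch proteins named here after their values were seen, were at -2.05 ± 0.25 and -1.84 ± 0.35 at day 15.

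Of 29 genes of hydroxyglutarate and hydroxybutyrate metabolism, which bear on Adhfe1, 24 fell at every day and 3 to 4 rose, with medians of -1.59 to -2.02. With library size alone 17, 16, 17 and 16 fell. At day 7 the aminotransferase Gpt2 fell by 2.91 ± 0.33 on the log2 scale, while the glutaminase Gls2 rose by 2.86 ± 0.38 from a low level of 0.248 ± 0.120 CPM and the serine synthesis enzyme Phgdh rose by 2.64 ± 0.35.

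Tetraspanins other than Tspan8 were called higher more often than lower. Of 29 tested, 18, 18, 17 and 14 rose and 6, 7, 5 and 7 fell, with medians of 0.94, 0.70, 0.54 and 0.53. With library size alone 26, 27, 26 and 25 rose and 0 fell at each day. The leukocyte tetraspanins Cd53 and Cd37 rose at day 7 by 4.88 ± 0.48 and 4.31 ± 0.38, and Tspan32 by 2.78 ± 0.47. All 14 macrophage markers rose at each day, and their part in the tetraspanin counts was not tested.

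Carboxylesterases and lipases, the group of Ces1d, were mixed, with 9, 8, 6 and 4 lower and 6, 5, 6 and 7 higher of 17 tested. At day 4 the lysosomal lipase Lipa rose by 3.89 ± 0.35, Plin5, a lipid droplet protein of oxidative tissues, fell by 3.78 ± 0.70, and Ces2c rose from 0.120 ± 0.220 to 1.43 ± 1.08 CPM. The medians of -1.04, -0.49 and -0.22 at days 4, 7 and 11 turned positive with library size alone (0.26, 0.64 and 0.92), where 4, 2, 2 and 1 fell and 6, 9, 10 and 13 rose over the 4 days, and that of day 15 was 1.06. They were the same with the 3 genes near the floor in uninjured muscle at their bounds.

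The lists for the remaining members held genes called in both directions, in shares that depended on the scaling. Of 25 genes of phosphocholine and phosphoethanolamine metabolism, around Phospho1, 11, 10, 8 and 9 fell and 7, 6, 5 and 6 rose, with medians of -0.06 to -0.33 that turned positive with library size alone, where 3, 4, 4 and 4 fell and 17, 17, 16 and 18 rose. At day 4 the glycerophosphocholine hydrolase Gpcpd1 fell by 3.05 ± 0.42 and the alkaline phosphatase Alpl by 2.40 ± 0.42, and the pyrophosphate-forming Enpp1 rose by 2.58 ± 0.39. Of 40 short-chain dehydrogenases, around Sdr39u1, 16, 18, 19 and 20 fell and 17, 14, 13 and 12 rose. At day 4 Dhrs7c, found in muscle, fell by 3.43 ± 0.32, while the prostaglandin-degrading Hpgd rose by 2.94 ± 0.38. The median of this list was 0.14 at day 4 and -0.27 to -0.50 later, positive at every day with library size alone, where 6, 3, 4 and 4 fell and 31, 25, 24 and 20 rose. Of 39 Lrrc genes 13, 15, 15 and 13 fell and 14, 15, 16 and 15 rose, with medians of -0.14 to 0.14, of which the negative one of day 7 turned positive with library size alone, where 5, 4, 5 and 4 fell and 26, 24, 25 and 24 rose. At day 11 Lrrc15, a marker of activated fibroblasts, rose by 8.15 ± 0.80, Lrrc17 by 4.90 ± 0.46 and Lrrc25 by 4.26 ± 0.55, from uninjured means of 0.219, 2.14 and 0.234 CPM.

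**Figure D5:**
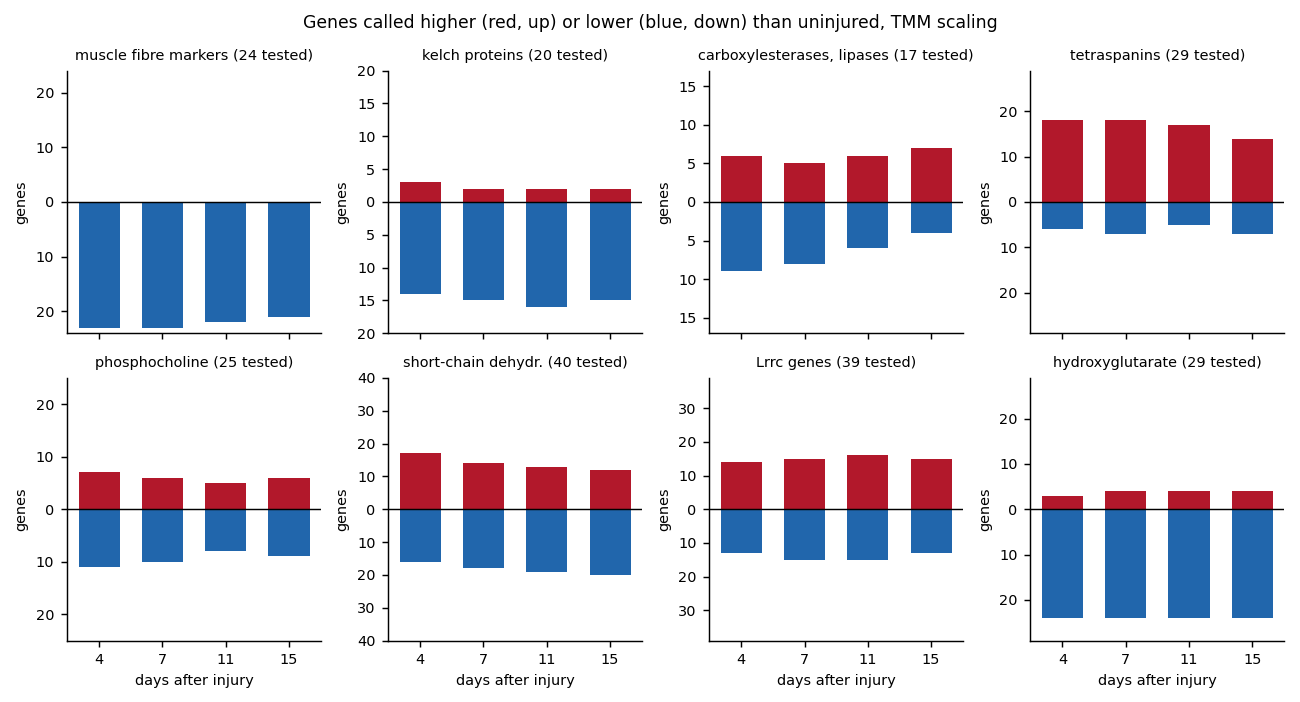
Number of genes (y axis) called higher (red, up) or lower (blue, down) than uninjured muscle at days 4, 7, 11 and 15 (x axis) in the fibre marker list and the 7 lists of related genes, each axis scaled to the genes tested. With TMM scaling fibre markers, kelch proteins and hydroxyglutarate genes were mostly lower and tetraspanins more often higher than lower; with library size alone kelch proteins were mixed (8 higher and 5 lower at day 4) and the phosphocholine, short-chain dehydrogenase and Lrrc lists mostly higher (17, 31 and 26 at day 4).

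Other cell types were counted in the same way. Fibroblast markers rose in 9, 9, 11 and 11 of 12 and fell in 1 at day 4. Endothelial markers fell in 10, 4, 3 and 2 of 14 and rose in 0, 0, 3 and 10, with a median of -0.73 at day 4 that was 0.58 with library size alone, where 1 fell and 10 rose. Schwann cell markers fell in 8, 3, 1 and 1 of 12 and rose in 2, 1, 5 and 6, with a median of -0.95 at day 4 that was 0.36 with library size alone, where 2 fell and 5 rose. The negative day 7 medians of both lists, -0.25 and -0.09, turned to 0.90 and 1.08 as well. At day 15 the medians of the 3 lists were 2.78, 0.66 and 0.76, beside means of 3.26, 5.59 and 6.43% of uninjured muscle for Phospho1, Sdr39u1 and Lrrc20. The part of these cells in the members' levels was not tested.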

How the data were processed

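The authors deposited 1 read count per gene symbol for each of 30 libraries, with 26264 symbols. The submitters' processing notes name STAR, edgeR and mm39; for the counting program, annotation, strand handling and versions, the entry is: not given in the sources used here. Total counts were 13089999 to 57277336. Most low counts were even (65.5 to 77.5% of those from 1 to 20), so a read pair may have counted as 2 and the floor was set at 6 counts. The SD of log2 CPM within groups was 0.74 to 1.58 over the members, the highest being Ces1d.

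Genes were kept by filterByExpr (17136 kept, 9128 removed), scaled by TMM and fitted with edgeR 4.0.16 in R 4.3.3 (glmQLFit, all 30 libraries, 10 group means by sex and time). Contrasts weighted both sexes equally, were tested with glmQLFTest and called at a Benjamini-Hochberg adjusted p under 0.05. SE came from the same fits. Log2 CPM used a prior count of 2. Fits were tested on simulated data. Alternatives were RLE scaling, library size alone, 2 other low-count filters, DESeq2 1.42.0, an added fold change of 2, a fit of the compared groups only, a replicate block, leaving out libraries in turn and, added after seeing the data, halved counts.

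The members and gene lists were chosen with earlier results of these data known. Named genes were the 7 members, the 3 genes most like each, in each list the 3 called genes that changed most on the day when most were called (mean CPM of at least 1), and Ckm, Myh4 and Adipoq. Genes that overlap a member were named for that reason. A gene that the rule named is not reported here. Gene lengths and overlaps came from GENCODE M21 (GRCm38), a different build from the counts. Libraries with the same replicate number deviated together little more than others (mean residual r of 0.0204 over 135 pairs against -0.0106 over 270). Of 30 libraries 13 were closest to a library of their own number in another group. These values carry no error, so they neither show nor exclude a pairing by number.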

Additional observations from a re-analysis of the deposited data

Results flagged for a closer look

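In each group of 6 libraries of 1 time, the highest and lowest log2 CPM of each member were compared with the nearest other library. In 7 of 35 groups the gap was a larger part of the range than Dixon's 95% value allows, where chance gives about 1 in 20. Female day 4 replicate 2 was far below the other 5 for Klhl33 (1.92, the next being 4.73) and Adhfe1 (-0.44, the next being 1.45), and male uninjured replicate 1 for Phospho1 (3.96, next 5.25) and Sdr39u1 (5.01, next 5.86). Female day 15 replicate 2 was low for Klhl33 (7.72, next 8.24). Male day 11 replicate 1 was high for Ces1d (2.39, next 0), and female day 15 replicate 3 for Tspan8 (4.22, next 2.92). The libraries were kept in every comparison.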

How the results depend on the processing

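With library size alone the median fold change of the 7 members was -2.84, -2.15, -3.29 and -2.96 at days 4, 7, 11 and 15, all members kept their direction against uninjured muscle, and, over all gene lists together with the cell type markers and each gene counted once, the genes called lower were 68, 52, 56 and 50 (140, 130, 121 and 117 with TMM) and those called higher 164, 170, 171 and 176 (95, 91, 99 and 112 with TMM). The split of higher and lower list genes therefore depends on the scaling. With an added fold change of 2 the same pool held 87, 65, 71 and 57 lower and 63, 57, 64 and 65 higher genes. Among the 8 tests between injured days, 0 was called with TMM and 1 with library size alone or DESeq2, always Klhl33 at day 15 against day 7 (1.25 with an adjusted p of 0.0419 and 0.0285). With the replicate block, a pairing that is neither shown nor excluded, Klhl33 at day 15 against day 7 was 1.40 (adjusted p = 0.0332 by edgeR) and 1 test was called. The block changed no other call of a member. Leaving out 1 library in turn gave 0 to 3 called tests between days and 0 to 1 called sex tests. The 3 were without female day 7 replicate 1, where Sdr39u1 at day 7 against day 4 turned from 0.03 to -0.82 (-0.82 to 0.22 over the libraries left out in turn). The cause was not tested. Every member kept its direction against uninjured muscle in every alternative fit that gave its fold change, and Klhl33 at day 15 came nearest to 0 (-0.09, library size alone). That direction also led to the choice of the members, so its return in the same libraries is no separate evidence. Halving the counts changed no call of a member, and how far depth limits the members was not otherwise tested.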
